A study of Mus musculus with 4 samples.

Results

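Ccl3, Ccl4, Ccl5 and Ccr1 were followed across the cells of 4T1 tumours by droplet single-cell RNA sequencing. The 4 genes were taken by their symbols from the 55450 genes of a matrix of unique molecular identifier (UMI) counts, in which every UMI stands for a counted transcript molecule. 4T1 is a mouse mammary carcinoma line, and 1000000 cells were implanted into the right flank of each female BALB/c mouse at 6 to 8 weeks of age. On day 7 the mice received PBS (2 samples) or TIOs (1 sample, TIOs+NIR3) intravenously, the tumours of all were lit for 5 min with a 980 nm near-infrared (NIR) laser at 1.0 W per cm2 on day 8, day 9 and day 10, and tumours were taken on day 13. TIOs are T-cell-inspired oncolytic particles built from macrophages that were loaded with light-responsive nanoparticles and killed in liquid nitrogen, so the treated mice also received macrophage-derived material. The remaining sample is titled PBS while its protocol names TIOs, and it was left without a group.

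The barcodes carry 4 suffixes, which stand for 4 libraries. No source used here ties a suffix to a sample, so the 4 libraries are shown apart and no effect of TIOs+NIR3 could be examined. Whether a library came from a single mouse is not given either. The libraries held 69255999 to 108646352 UMIs each and 32133 of 33064 barcodes were kept, between 6783 and 8889 per library. Median depth was 2642 and 2695 UMIs per cell in libraries 2 and 3, and 7182 and 11698 in libraries 4 and 1. Library 1 stood apart, since 4003 of its 7847 cells fell in the tumour or epithelial gate against 290, 0 and 2 cells in the others. Although the samples had been sorted for CD45, every library held cells of types other than leucocytes. Fibroblasts numbered 173, 1611, 1181 and 1120 in libraries 1 to 4. Ptprc, which encodes CD45, was detected in 13.8% of cells in the tumour or epithelial gate, in 29.0% of fibroblasts and in 66.3% of neutrophils. These shares were not corrected for depth, with medians of 19043, 27914 and 1804.5 UMIs per cell in these types. Per 1000000 UMIs of the type, Ptprc stood at 9.83, 16.7 and 708 UMIs. The libraries shared 101 barcode sequences.

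Chemokines are small secreted proteins that draw leucocytes along concentration gradients. Ccl3 (MIP-1α), Ccl4 (MIP-1β) and Ccl5 (RANTES) belong to the CC branch, named for a pair of neighbouring cysteines near the start of the mature protein. Ccl3 and Ccl4 are rapidly induced in activated myeloid cells and lymphocytes, whereas Ccl5 is best known from cytotoxic lymphocytes and some dendritic cells. Ccr1 is a G protein-coupled receptor of myeloid cells which is engaged by Ccl3, Ccl5 and several other CC chemokines.

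In the GRCm38 build (GENCODE vM21) the 3 chemokine genes lie close together on chromosome 11. Ccl3 (ENSMUSG00000000982) spans chr11:83647844-83649355 on the minus strand, and Ccl4 (ENSMUSG00000018930) spans chr11:83662584-83664683 on the plus strand, so the pair is transcribed away from each other across 13228 bases. Ccl5 (ENSMUSG00000035042) lies at chr11:83525778-83530518 on the minus strand, and each of the 3 genes has 3 exons. Ccr1 (ENSMUSG00000025804) has 2 exons and lies at chr9:123962124-123968692 on the minus strand. The coding stretches below are shown because they carry the feature that defines the family. Each runs 5′ to 3′ within the coding exons, with the codons of the neighbouring cysteines in capitals.
Ccl3: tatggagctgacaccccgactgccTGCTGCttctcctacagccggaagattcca
Ccl4: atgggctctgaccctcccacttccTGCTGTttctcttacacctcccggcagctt
Ccl5: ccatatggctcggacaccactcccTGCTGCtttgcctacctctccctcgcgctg
The cysteines are codons 34 and 35 of Ccl3 and Ccl4, and codons 33 and 34 of Ccl5. The coding sequences of Ccl3 and Ccl4 were 69.6% identical over 270 aligned bases, those of Ccl3 and Ccl5 61.9% and those of Ccl4 and Ccl5 59.7%. The longest run of identical bases shared by the transcripts of Ccl3 and Ccl4 was 9, and for Ccl3 and Ccl5 it was 13, which bears on whether a read could be assigned to the wrong gene.

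RefSeq promoters (GRCm38.p6) were at hand for 2 of the 4 members, Ccl3 and Ccr1. They are shown because both genes had their highest pooled level in neutrophils. Each stretch is the 250 bases before the annotated start of transcription, written along the gene's strand, with matches to TATAA (TATA box), TGANTCA (AP-1) and GAGGAA (PU.1) on either strand in capitals.
Ccl3, chr11:83649379-83649628, minus strand: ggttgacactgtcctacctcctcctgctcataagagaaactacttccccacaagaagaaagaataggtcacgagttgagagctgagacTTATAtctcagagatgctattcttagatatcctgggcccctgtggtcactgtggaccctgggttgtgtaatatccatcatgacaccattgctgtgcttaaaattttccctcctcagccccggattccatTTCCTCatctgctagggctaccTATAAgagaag
Ccr1, chr9:123968693-123968942, minus strand: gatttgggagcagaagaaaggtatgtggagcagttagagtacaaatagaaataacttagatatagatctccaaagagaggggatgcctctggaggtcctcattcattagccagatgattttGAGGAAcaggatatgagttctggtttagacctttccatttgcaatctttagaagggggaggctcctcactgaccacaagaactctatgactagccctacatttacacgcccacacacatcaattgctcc
The Ccl3 stretch held TATAA at 2 places and a PU.1 match and the Ccr1 stretch held a PU.1 match, without overlap. Among 32851 RefSeq promoters of the same length, 22.8% held TATAA, 6.75% the AP-1 letters and 23.3% the PU.1 letters, so such matches are common and are given as a description.

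Cells were sorted into types by a score over marker genes that left out the 4 members, and the names below are those of the gates. Neutrophils were the largest type with 9258 cells, followed by 4295 tumour or epithelial cells, 4085 fibroblasts, 3836 monocytes and 3454 macrophages. Of 42 markers that the gates had not used, 30 were highest in their own type and 40 ranked first or second, while 9.29% of the cells met no gate. Levels are given as UMIs per 1000000 UMIs of the type (CPM), over the summed cells of a type. Intervals are exact 95% Poisson intervals for levels and exact (Clopper-Pearson) 95% binomial intervals for shares, and they cover counting error only. As cells are not replicates and the libraries have no known treatment, no p-value was computed. Pooled values weight the libraries by their UMIs.

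**Figure D1:**
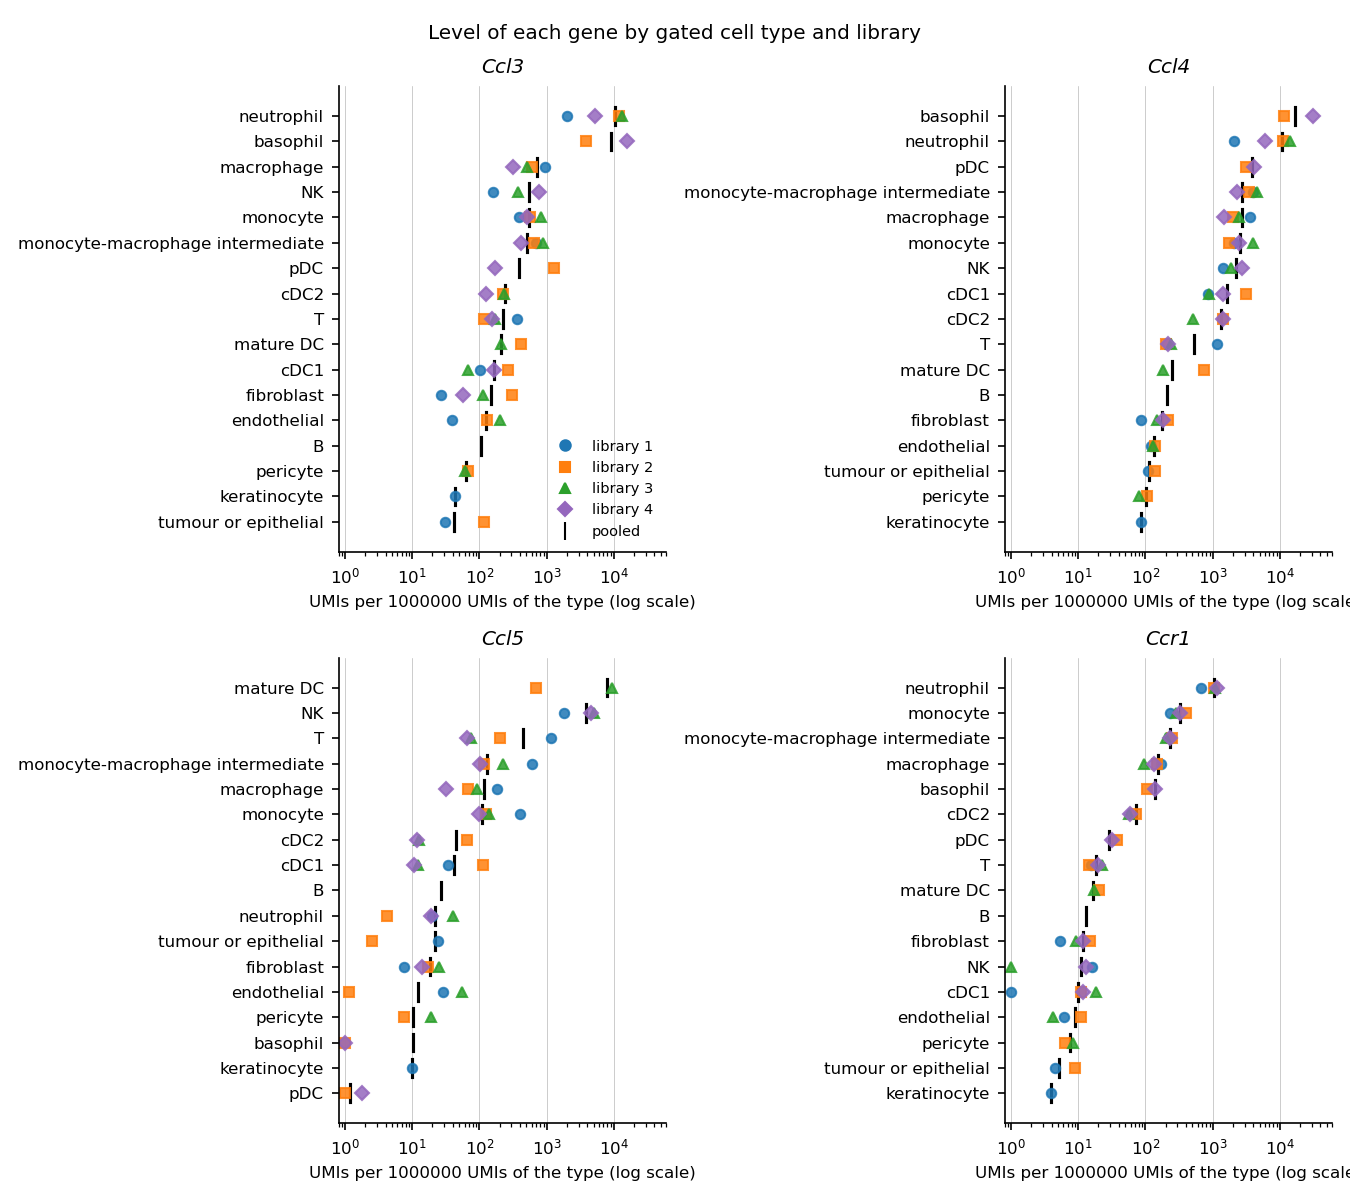
Level of Ccl3, Ccl4, Ccl5 and Ccr1 in UMIs per 1000000 UMIs of the type (x axis, log scale) by gated cell type (y axis, ordered by the pooled level). Points are libraries with at least 20 cells of the type, those at 0 are drawn at 1, and the black tick is the pooled value of all libraries. In the pooled cells Ccl3 and Ccr1 were highest in neutrophils, Ccl4 in basophils and Ccl5 in mature dendritic cells (DC).

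Ccl3 was concentrated in granulocytes. Its level in neutrophils was 2040 CPM in library 1, 11927 in library 2, 13072 in library 3 and 5295 in library 4. Library 1 was the lowest and libraries 2 and 3 the highest, with a 6.41-fold range, although the median depth of neutrophils was similar in all of them, between 1575 and 1929 UMIs. Pooled, the level was 10312 CPM (10266 to 10359) and neutrophils held 63.2% of all Ccl3 UMIs, which made Ccl3 the gene with rank 9 in these cells. Within the libraries that share ranged from 12.4% in library 1 to 85.4% in library 3. A Ccl3 UMI was found in 83.2% of neutrophils, and in 80.0% once each cell was thinned to 1000 UMIs. Thinned shares were 45.4% in library 1, 80.3% in library 2, 90.8% in library 3 and 74.0% in library 4, the same order as the levels.

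The 81 basophils, rare granulocytes that release histamine and cytokines, came close to neutrophils in Ccl3. Their levels were 8376 CPM in library 1, 3815 in library 2, 7758 in library 3 and 15584 in library 4, from 14 to 25 cells each. Of the 2 libraries with at least 20 basophils, neutrophils were higher in 1 and basophils in the other, so the order of these types did not hold across libraries. Basophils led in the pooled cells once library 2 or library 3 was left out, which brought neutrophils to 9440 and 8635 CPM, and also after thinning. Of the 8 neutrophil gate genes, Csf3r was found in 1.23% of basophils, Trem1 in 4.94%, Il1r2 in 9.88%, G0s2 in 14.8%, Cxcr2 in 22.2%, S100a8 in 32.1%, S100a9 in 61.7% and Hdc in 91.4%. Basophils with at least 10 Ccl3 UMIs carried the neutrophil list at 3863 CPM and the other basophils at 2397 CPM, against 95706 CPM in neutrophils, and Hdc, which basophils also express, belongs to that list.

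In the pooled cells every other type lay more than 10-fold below. Macrophages stood at 963, 597, 507 and 316 CPM in libraries 1 to 4 and monocytes at 388, 568, 835 and 504 CPM. The order of macrophages, NK cells, monocytes and monocyte-macrophage intermediates, with pooled levels of 711, 550, 540 and 508 CPM, changed from library to library. In library 1 macrophages held 58.2% of all Ccl3 UMIs, which made them the main holder there, in contrast to the other libraries. Macrophages numbered 1408 in library 1 and neutrophils 779.

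Low Ccl3 in cells of the stroma and tumour moved with the level of the whole library, which was 215, 1553, 1542 and 469 CPM in libraries 1 to 4. Fibroblasts had 27.0, 307, 114 and 57.1 CPM in libraries 1 to 4, and tumour or epithelial cells had 30.6 CPM in library 1 and 118 CPM in library 2. A Ccl3 UMI was seen in 76.5% of fibroblasts, whose median depth was 27914 UMIs, but in 11.4% after thinning, against 80.0% of neutrophils. The 6.10% of fibroblasts with at least 10 Ccl3 UMIs held 58.5% of the type's Ccl3. These cells carried the 8 neutrophil gate genes at 3454 CPM and the other fibroblasts at 524 CPM, which was measured without testing its part in the Ccl3 signal. Among droplets whose markers came from more than 1 lineage and were led by neutrophil genes, Ccl3 stood at 5428 CPM.

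Against monocytes, the next most numerous myeloid type, 3 members were higher in neutrophils and 1 was lower. A gene counted as different when its CPM ratio, with 10 CPM added to each side, was at least 2 in the pooled cells and pointed the same way in each library with at least 20 cells of both types. By this rule 3.53% of 17300 genes were higher and 10.1% lower in neutrophils. Ccl3 was 18.8 times as high (5.15, 20.7, 15.5 and 10.3 in libraries 1 to 4). Ccl4 was 4.11 times as high, although in library 1 the ratio was 1.00. Ccr1 was 3.24 times as high (2.84, 2.58, 3.74 and 3.58), and Ccl5 was 0.264 times as high. Basophils against neutrophils gave 10.7% of 17301 genes higher and 6.36% lower in 2 libraries, and of the members only Ccr1 met the rule, at 0.140 times the neutrophil level.

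Neutrophils were then divided by Retnlg, a transcript of neutrophils recently released from the bone marrow, and Cd274, which encodes PD-L1. In cells with Cd274 and without Retnlg, Ccl3 was 4002, 16563, 14668 and 5999 CPM in libraries 1 to 4. In Retnlg-positive cells it was 1172, 10206, 13270 and 4881 CPM. Ccl3 was therefore higher in the Cd274-positive Retnlg-negative cells in all 4 libraries, by ratios of 3.39, 1.62, 1.11 and 1.23. The 3984 neutrophils with neither transcript had 2412, 8666, 11795 and 5518 CPM, which was above the Retnlg-positive cells in libraries 1 and 4 and below them in libraries 2 and 3. The pooled ratio of 1.54 stayed under 2, as did 1.26 for Ccl4, so no member met the rule, by which 0.0578% of 17313 genes were higher and 0.0289% lower. Ccl4 was also higher in the Cd274-positive Retnlg-negative cells in all 4 libraries, with ratios of 1.51, 1.23, 1.09 and 1.29. In the cells with neither transcript it was 2604, 10163, 12905 and 5729 CPM, below the Retnlg-positive cells in libraries 2 to 4, so the lack of a Retnlg UMI alone did not go with more Ccl3 or Ccl4 in every library. Ccr1 had no common direction, with ratios of 1.37, 0.886, 0.955 and 1.06.

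**Figure D2:**
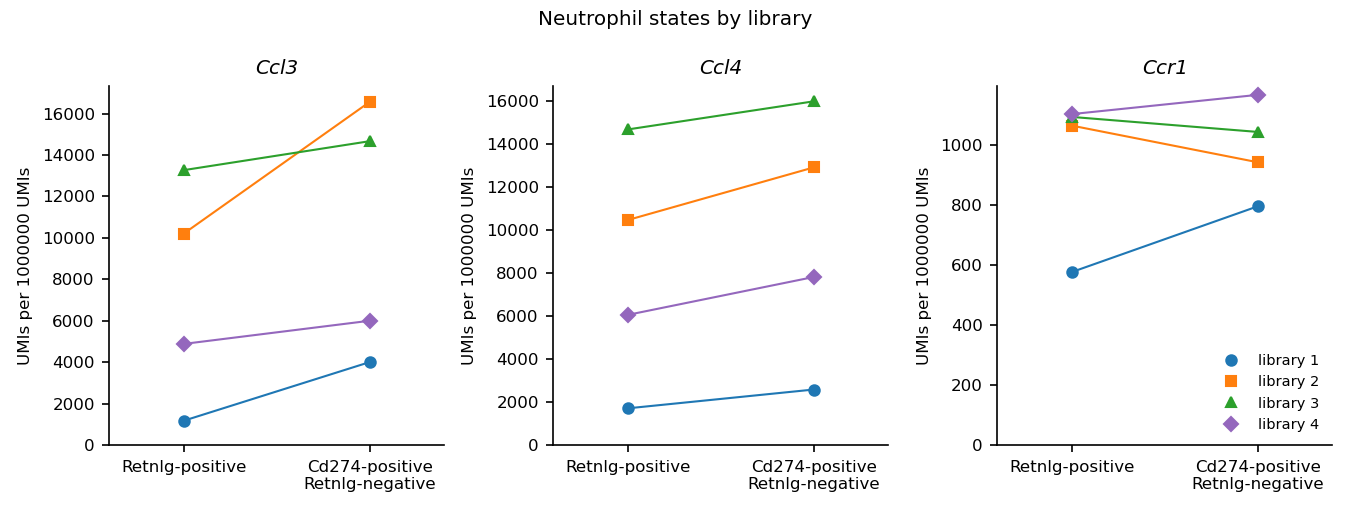
Ccl3, Ccl4 and Ccr1 (y axes, UMIs per 1000000 UMIs, starting at 0) in Retnlg-positive neutrophils and in Cd274-positive Retnlg-negative neutrophils, with a line for each of the 4 libraries. The Ccl3 and Ccl4 lines all climb, while the Ccr1 lines run in both directions.

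Ccl4 was spread over more cell types than Ccl3. In neutrophils it was 2084 CPM in library 1, 11238 in library 2, 14352 in library 3 and 6070 in library 4, and these cells held 41.0% of all Ccl4 UMIs. That share ran from 3.77% in library 1 to 73.1% in library 3, and it was 69.4% after thinning, which gives every cell the same weight. The highest pooled level, 17057 CPM (16588 to 17537), was found in basophils, in which Ccl4 was the gene with rank 2. Their values were 13179, 11562, 7382 and 31403 CPM in libraries 1 to 4, so library 4 was far above the others. Without library 4 the basophil level was 11172 CPM and neutrophils led. Basophils held only 1.04% of all Ccl4 UMIs because of their number.

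Mononuclear phagocytes formed the next group. Macrophages had 3656, 1998, 2440 and 1478 CPM in libraries 1 to 4 and monocytes 2076, 1735, 3941 and 2503 CPM. The pooled levels of 2721 and 2596 CPM were close, and macrophages were higher in 2 of 4 libraries, so their order was not settled. A Ccl4 UMI was found in 61.3% of pooled macrophages and 58.9% of pooled monocytes after thinning, near the 66.2% of neutrophils. The libraries differed. In library 1 it was found in 264 of 632 thinned neutrophils but in 966 of 1291 macrophages. In library 2 it was found in 2115 of 3104 neutrophils and 514 of 1026 macrophages. The counts were 2249 of 3009 and 112 of 195 in library 3, and 1069 of 1863 and 386 of 714 in library 4. The pooled level in neutrophils was about 4-fold higher. In library 1, however, the neutrophil level was below that of macrophages and close to that of monocytes. Plasmacytoid DC (pDC), the interferon-producing type, reached 3821 CPM with 3178 CPM in library 2 and 4187 CPM in library 4. Ccl4 had rank 17 of all genes in the 127 pDC, and their Ccl5 consisted of a single UMI.

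Among conventional DC, cDC1 (cross-presenting cells) had a pooled Ccl4 level of 1644 CPM and cDC2 1321 CPM. In cDC1 the levels were 844, 3191, 881 and 1407 CPM in libraries 1 to 4, and library 2 was the highest. NK cells had 1413 CPM in library 1, 1868 in library 3 and 2709 in library 4. CD8 T cells, 238 of which came from library 1, had 1417 CPM. Mature DC, which carry Ccr7 and migrate to lymph nodes, were low with 249 CPM, and fibroblasts (179 CPM) and tumour or epithelial cells (113 CPM) were lower still.

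The balance of Ccl4 to Ccl3 was steady across libraries in neutrophils and differed from that of monocytes and macrophages. This ratio of UMI counts is compared between types only. Neutrophils had 1.02, 0.942, 1.10 and 1.15 Ccl4 UMIs per Ccl3 UMI in libraries 1 to 4, although the level of each gene varied more than 6-fold between these libraries. Macrophages had 3.80, 3.35, 4.81 and 4.68, and monocytes 5.35, 3.06, 4.72 and 4.96. The ranges of neutrophils and of both mononuclear types did not overlap. The cDC1 ratio was higher, at 8.15, 11.8, 13.1 and 8.46. NK cells had 8.92 in library 1, 4.90 in library 3 and 3.47 in library 4.

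In fibroblasts and in tumour or epithelial cells, which had little of either gene, the ratio moved with that of the library. Fibroblasts had 3.20, 0.706, 1.31 and 3.15, and the kept cells as a whole had 3.35, 1.02, 1.28 and 3.08 in libraries 1 to 4. Tumour or epithelial cells had 3.59 in library 1 and 1.18 in library 2. Not every type with low levels followed the library. Endothelial cells had 3.11, 1.08 and 0.646 in libraries 1 to 3. T cells did not rise in library 4, with 3.21, 1.77, 1.38 and 1.39 in libraries 1 to 4. The pDC ratio was 2.44 in library 2 and 24.4 in library 4. In pDC as a whole, 4.72% of the cells held 68.8% of the Ccl3 UMIs, and these cells carried the neutrophil list at 16305 CPM against 406 CPM in the other pDC. The 61.4% of pDC with at least 10 Ccl4 UMIs carried that list at 1983 CPM and the rest at 428 CPM in summed UMIs. The medians per cell were closer, at 403 CPM in the former group and 343 CPM in the latter. The monocyte list stood at 6529 CPM in the former and 6146 CPM in the latter, against 8922 CPM in monocytes, and the part of either list in the Ccl4 signal was not tested.

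**Figure D3:**
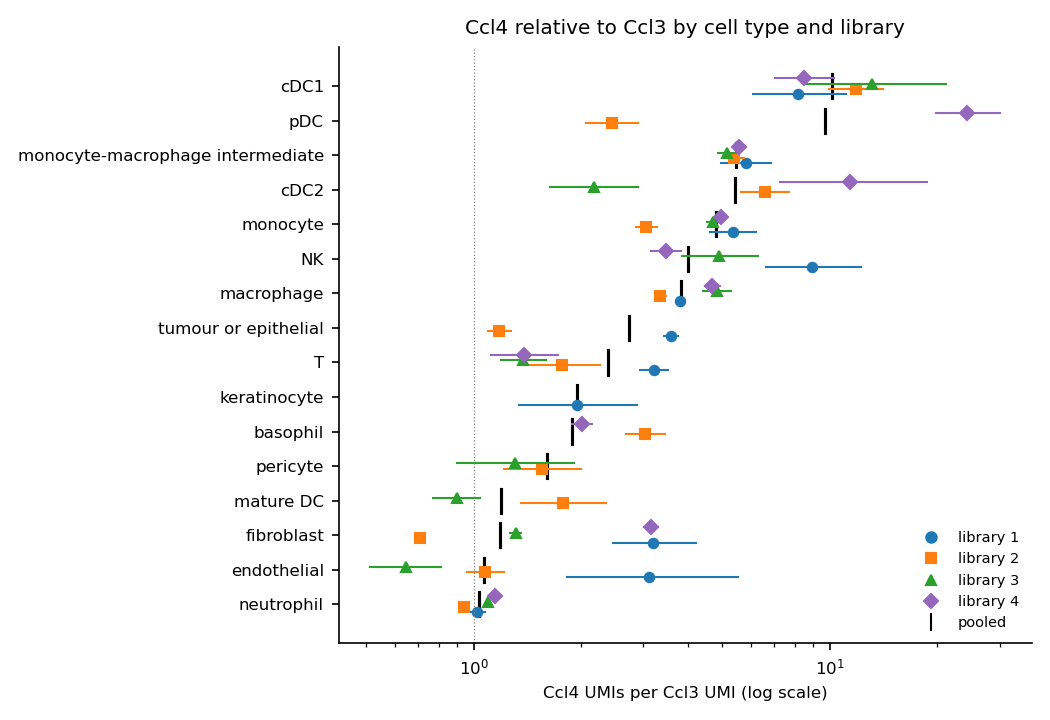
Ccl4 UMIs per Ccl3 UMI (x axis, log scale) by gated cell type, with a point for each library with at least 20 cells, 95% counting intervals as lines, the pooled ratio as a black tick and a dotted line at 1. Neutrophils lie between 0.942 and 1.15 and cDC1 between 8.15 and 13.1, while fibroblasts range from 0.706 to 3.20.

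Within most types Ccl4 was detected more often in cells that had Ccl3 than in cells that did not, in granulocytes and elsewhere. After thinning, a Ccl4 UMI was present in 73.6% (72.6 to 74.7) of the neutrophils with Ccl3 and in 36.3% (34.0 to 38.6) of those without. The pairs of shares were 51.2% and 33.9% in library 1, 76.0% and 36.2% in library 2, 78.1% and 41.7% in library 3, and 65.2% and 35.1% in library 4. The intervals of the pair did not overlap in any library. Monocytes showed 77.5% and 51.1%, macrophages 79.0% and 52.2%, and basophils 92.0% and 15.4%. Pooled NK cells had 80.8% and 53.4% and pooled T cells 40.7% and 23.3%. In library 4, which gave most NK cells, the pair was 84.6% and 71.9% with overlapping intervals. T cells had 63.8% and 30.7% in library 1, but 22.7% and 19.7% with overlapping intervals in library 3. Within T cells, the Foxp3-negative CD4 subset had no gap, at 16.7% and 16.9%. Pooled fibroblasts (37.4% and 11.8%) and tumour or epithelial cells (21.5% and 9.69%) showed the gap as well. The intervals of the pair overlapped in fibroblasts of library 4 (24.1% and 13.4%) but not of libraries 2 and 3. They overlapped in tumour or epithelial cells of library 2 (15.6% and 9.77%) but not of library 1. Pooled fibroblasts with Ccl3 also had Ccr1 more often (10.8%) than those without (1.37%). Library 2 had 15.3% and 1.36%, while the intervals overlapped in library 3 (2.70% and 1.05%) and library 4 (3.45% and 1.93%). The part of neutrophil transcripts in the fibroblast and tumour gaps was not tested. In contrast, Ccr1 was found in 60.5% of neutrophils with Ccl3 and in 60.8% of those without, and the pairs of shares in the 4 libraries were 46.0% and 47.2%, 58.8% and 63.5%, 60.9% and 64.5%, and 65.8% and 64.9%. A cell's true content cannot be read from a missing UMI at this depth.

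**Figure D4:**
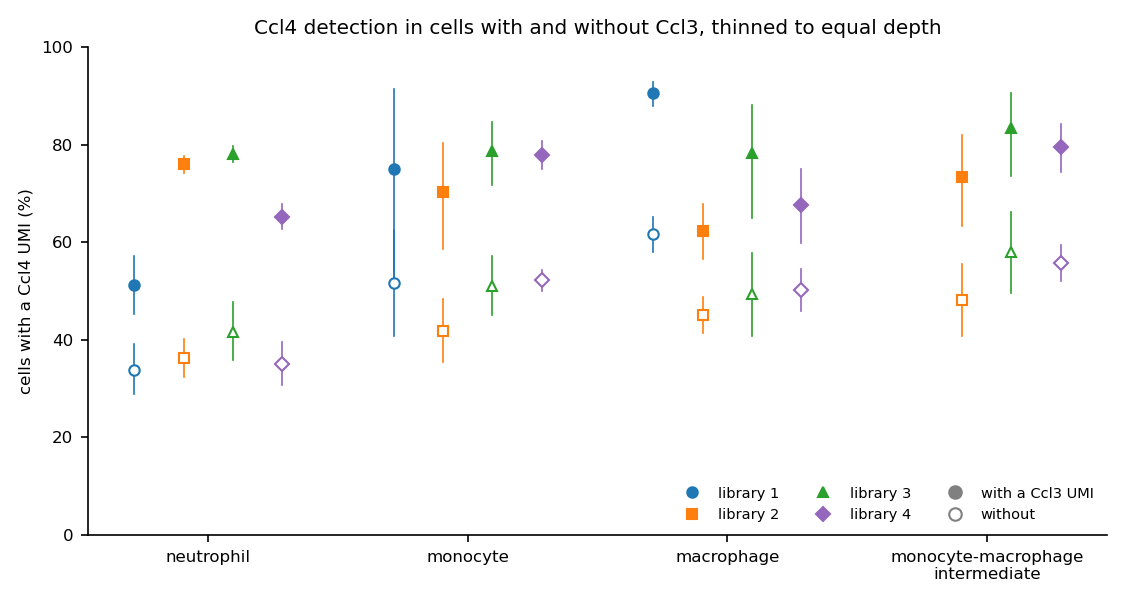
Share of cells with a Ccl4 UMI (y axis, percent) among cells with a Ccl3 UMI (filled) and without (open), after thinning every cell to 1000 UMIs, by type and library with 95% binomial intervals. Groups under 20 cells are left out; filled points lie above open points in every library shown, for example 76.0% and 36.2% in library 2 neutrophils.

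Ccl5 had a different distribution, with the highest levels in mature DC and NK cells. In mature DC it was 2360 CPM in library 1 (17 cells), 684 in library 2 (22 cells), 9552 in library 3 (200 cells) and 24.6 in library 4 (6 cells). Library 3 was far above the others and contributed 17005 of the 17434 UMIs. The pooled level was 7840 CPM (7724 to 7957), and 245 cells, 0.762% of those kept, held 42.0% of all Ccl5 UMIs. In library 3 a Ccl5 UMI was found in 93.0% of mature DC with a median of 57 UMIs per cell. In libraries 1 and 2 it was found in 70.6% and 68.2%, with medians of 2 and 1.5 UMIs. Among the genes of mature DC, Ccl5 had rank 6.

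NK cells expressed Ccl5 in each library. The levels were 1795, 2755, 5102 and 4521 CPM in libraries 1 to 4, from 50, 9, 30 and 116 cells, and NK cells held 12.1% of all Ccl5 UMIs. In library 1, where 64.0% of NK cells had a Ccl5 UMI, the level was lowest, and libraries 3 and 4 were close with 96.7% and 94.0% of cells. Without library 3 the mature DC level dropped to 967 CPM and NK cells became the leading type. Only in library 3 did both types have at least 20 cells, and mature DC were higher there.

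CD8 T cells had 1232 CPM of Ccl5 in library 1 (238 cells) and 5429, 808 and 2089 CPM in libraries 2 to 4 from 4, 11 and 7 cells. In library 1, 45.0% of them held a Ccl5 UMI. CD4 T cells without Foxp3 had 420 CPM in library 1, but 37 of the 42 UMIs there came from a single cell, and 4.92, 23.5 and 13.7 CPM in the others. Similarly, Foxp3-positive regulatory T cells (Treg) had 3210 CPM in library 1, where 222 of 261 UMIs were from a single cell. These values rest on few cells and give no level for the subset.

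Ccl5 was low and uneven in myeloid cells. Macrophages had 185, 67.6, 93.3 and 32.0 CPM in libraries 1 to 4 and monocytes 399, 127, 140 and 98.7 CPM, so monocytes were higher in all 4 libraries. The pooled order was the reverse, with 119 CPM in macrophages and 110 CPM in monocytes. Of 3454 macrophages, 69 with at least 10 UMIs held 72.8% of the type's Ccl5, and of 3836 monocytes, 68 held 73.1%. NK gate genes summed to 4.77 CPM in these macrophages and to 2.04 CPM in the other macrophages. In these monocytes they summed to 73.3 CPM and in the other monocytes to 2.93 CPM, against 2155 CPM in NK cells. Their median per cell was 0 CPM in both groups of monocytes. Mature DC genes summed to 58.5 CPM in these macrophages and to 45.0 CPM in the others. In monocytes the sums were 24.4 and 19.7 CPM, against 9142 CPM in mature DC. The part of NK or mature DC transcripts in the Ccl5 signal was not tested. Neutrophils, with 1.52% of thinned cells and 21.8 CPM, were close to fibroblasts (1.04% and 18.5 CPM) and to tumour or epithelial cells (1.76% and 21.5 CPM), and the source of these UMIs was not tested.

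**Figure D5:**
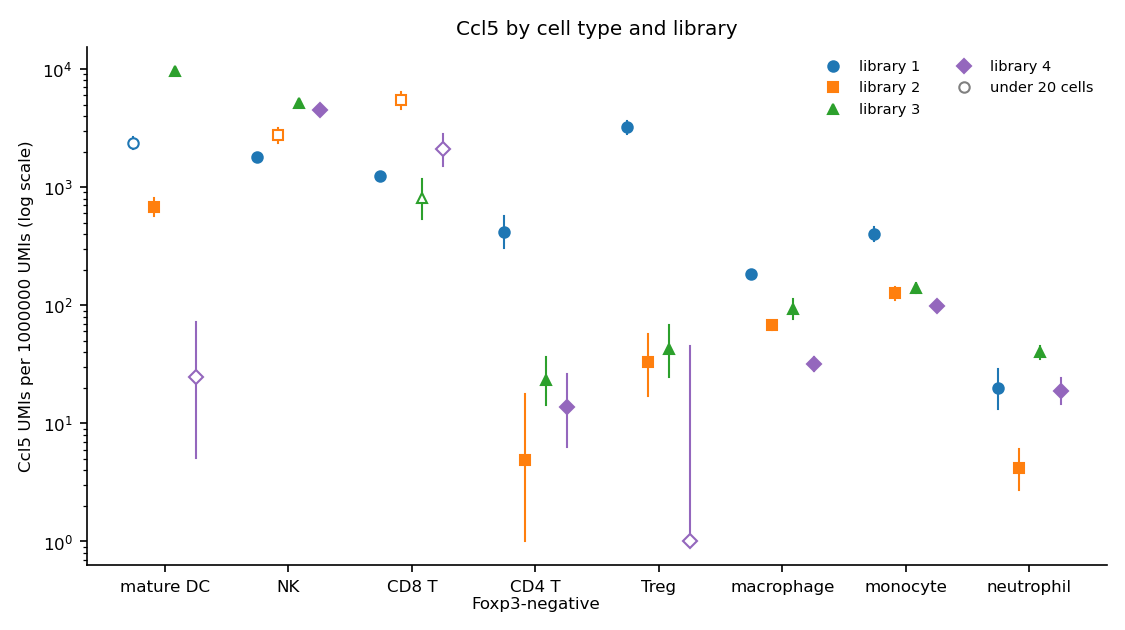
Ccl5 in UMIs per 1000000 UMIs (y axis, log scale) by gated cell type and library, with 95% Poisson intervals; open symbols are groups under 20 cells and values at 0 are drawn at 1. Mature DC spread from 24.6 to 9552, NK cells stay between 1795 and 5102, and neutrophils lie at or below 39.9.

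Related lymphoid and dendritic types differed in these genes. Between mature DC and cDC2, with 2 libraries in use, 3.54% of 17303 genes were higher and 4.57% lower in mature DC by the rule above. Ccl5 was 144 times as high in the pooled cells (9.33 in library 2 and 425 in library 3). Ccl4 was 0.194 times as high (0.522 and 0.381) and Ccr1 0.323 times (0.361 and 0.414). Both of these pooled ratios, taken over all libraries, lay below the ratio of either library. Between NK and T cells, with libraries 1, 3 and 4 in use, 1.09% of 17304 genes were higher and 1.98% lower. Ccl5 was 8.40 times as high in NK cells (1.53, 60.9 and 60.7) and Ccl4 4.09 times (1.22, 7.57 and 12.0). Library 1 had the smallest ratio for both genes, and it held most of the CD8 T cells. Ccl3 did not meet the rule, as its ratio was 0.455 in library 1 and 2.14 and 4.78 in libraries 3 and 4.

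CD8 T cells could be set against Foxp3-negative CD4 T cells within a library in library 1 only. By the rule above 1.51% of 17311 genes were higher and 2.24% lower in CD8 T cells. For this pair the rule took the 2-fold ratio from the cells of all libraries and only the direction from library 1. As 238 of 260 CD8 T cells but 29 of 346 CD4 T cells came from library 1, these percentages also set libraries against each other. Ccl3, Ccl4 and Ccl5 met the rule, with pooled ratios of 2.92, 6.89 and 28.5. Within library 1 they were 5.35, 16.6 and 2.89 times as high. The Ccl5 ratio within library 1 rests on a CD4 level to which a single cell gave 37 of 42 UMIs. The CD4 group there had 29 cells, and its Ccl3 and Ccl4 levels were each 80.0 CPM. After thinning, Ccl5 was found in 37.6% of CD8 T cells with Ccl4 and in 21.6% of those without. In NK cells the shares were 78.3% and 60.0%, but in library 4, which gave most of these cells, they were 77.8% and 76.9%.

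Ccr1, the receptor, was led by neutrophils in all 4 libraries. Its levels there were 675, 1058, 1091 and 1182 CPM in libraries 1 to 4, a 1.75-fold range that was narrower than that of Ccl3 or Ccl4. The pooled level was 1065 CPM (1051 to 1080), and neutrophils held 47.3% of all Ccr1 UMIs. Their share was lowest in library 1 (21.7%) and highest in library 3 (77.6%), and it was 76.4% after thinning. A UMI was found in 77.6% of neutrophils and in 60.6% after thinning. Monocytes followed with 231, 404, 284 and 323 CPM and macrophages with 173, 147, 95.9 and 133 CPM. Neutrophils were above monocytes and monocytes above macrophages in each library, and the intermediates, with a pooled 232 CPM, lay above macrophages in each.

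Basophils had 140 CPM (101 to 190), which overlapped the macrophage level of 155 CPM, and cDC2 had 72.5 CPM. Below these, T cells (18.5 CPM), mature DC (16.6 CPM), fibroblasts (11.7 CPM), NK cells (10.8 CPM) and cDC1 (9.91 CPM) had largely overlapping intervals. Tumour or epithelial cells were at 5.09 CPM, with 0.644% of cells positive after thinning against 2.46% of fibroblasts.

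Monocytes and macrophages were divided by other transcripts. Chil3 marks classical monocytes, and cells without it had 0.777 times the Ccr1, 0.802 times the Ccl3 and 0.814 times the Ccl4 of cells with it. Those ratios were below 1 in each of the 3 libraries compared. Ccl5 was 1.63 times as high without Chil3 (7.64, 1.03 and 1.41 in libraries 2 to 4). By the rule 0.0924% of 17314 genes were higher and 0.00578% lower, and no member was among them. Macrophages with Cd163, a scavenger receptor, were compared with those that had Arg1 (arginase) but not Cd163. Between these states 0.618% of 17313 genes were higher and 0.243% lower, again without a member. Ccl4 was 0.677 times as high in Cd163-positive macrophages, yet the ratio was 1.53 in library 1 (27 cells) and 0.765, 0.568 and 0.790 in libraries 2 to 4. The 1312 macrophages with neither transcript, 917 of which came from library 1, were outside this comparison. Their Ccl4 was 4230, 2681, 3424 and 2415 CPM in libraries 1 to 4 and their Ccl5 217, 103, 306 and 114 CPM. Pooled, they stood at 3907 CPM of Ccl4 and 198 CPM of Ccl5, against 1568 and 53.3 CPM in Cd163-positive macrophages. In library 1 alone the Ccl4 of both was close, with 4257 CPM in the Cd163-positive cells.

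The genes listed as other ligands of Ccr1 had their highest levels in mononuclear phagocytes and basophils. Whether each of them binds mouse Ccr1 was not examined. Of 4 measured, Ccl7 (2818 CPM) and Ccl8 (3929 CPM) were highest in monocyte-macrophage intermediates, Ccl9 (2088 CPM) in monocytes and Ccl6 (8090 CPM) in basophils. Ccl8 was nearly as high in macrophages (3916 CPM), which led in each library taken alone. For Ccl9 the intermediates led in libraries 1, 2 and 3 and monocytes in library 4. For Ccl6 basophils led in libraries 2 and 4, monocytes in library 1 and macrophages in library 3. Libraries 1 and 3 had under 20 basophils, which were left out there. In neutrophils these 4 genes were at 157 to 793 CPM, while Ccl3 was at 10312 CPM. Fibroblasts had 1463 CPM of Ccl7 and led for this gene in library 1.

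Of 5 other receptors for chemokines of this group, 3 had under 400 UMIs in all kept cells, namely Ccr3 (294 UMIs), Ccr4 (323) and the scavenging receptor Ackr2 (337). Ccr4 was almost restricted to T cells, at 48.2 CPM against 0.774 CPM or less in every other type, and T cells led in all 4 libraries. Ackr1, which carries chemokines across venules, was highest in endothelial cells at 92.3 CPM. Ccrl2, a non-signalling receptor related to the CC family, was highest in neutrophils at 4647 CPM in the pooled cells and led there in all 4 libraries, with mature DC next at 497 CPM.

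Genes with the most similar pattern were sought over 75 sums of a cell type in a library, from 24 types and subsets, by Pearson's r of log2(CPM + 10) among 17315 genes. The points share libraries and overlap in source, so r is a description. Ccl3 was closest to Cyp4f18 (r = 0.91), Nlrp3 (0.90), Acod1 (0.90), Lilrb4a (0.90) and Ccrl2 (0.89). Nlrp3 is an inflammasome sensor and Acod1 makes itaconate. For Ccl4 the genes were Plek (0.90), Lilr4b (0.89), Ccl3 (0.87), Fcer1g (0.87) and Tyrobp (0.87), the last 2 being signalling adaptors of myeloid and NK cells. Ccr1 was closest to Cd300lf (0.96), Igsf6 (0.95), C5ar1 (0.95), Cxcl2 (0.94) and Fpr2 (0.93), of which C5ar1 and Fpr2 are chemoattractant receptors. Ccl5 had no equally close gene. Its leading genes were AW112010 (0.73), Gm45716 (0.65), Tapbpl (0.63), Serpinb9 (0.63) and Epsti1 (0.62), and its r with Ccl3 was -0.14 and with Ccr1 -0.16. The lists depended on the measure. With Spearman's rho of CPM, 3 of the 5 genes stayed among the first 5 for Ccl3, Ccl4 and Ccr1, and 2 for Ccl5. By rho, Ccl4 (0.89) was closer to Ccl3 than any of the 5 genes named for it.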

How the data were processed

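CD45-sorted cells of 4T1 tumours were profiled with the 10x Genomics platform. The authors deposited a single matrix of UMI counts, which are whole numbers and not scaled per cell. It was made with Cell Ranger, by alignment, cell calling, UMI counting and joining of 4 libraries. The submitters' processing notes name Cell Ranger 2.1.1 and mm10, the matrix header names 6.1.2 and the methods a further version. The annotation was not given in the sources used here, and every identifier was found in GENCODE vM21.

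Cells with at least 300 genes and at most 15% mitochondrial UMIs were kept. Each cell was scored for 16 lineages by the mean of its log-scaled marker levels, each divided by the 90th percentile of the cells with that marker and capped at 1. A cell was gated when its best score was at least 0.2 and the next at most 0.7 of it. Cells split between monocyte and macrophage were called intermediates, and other cells were left ungated (1117 below the minimum, 1869 with more than 1 lineage). In 9.51% of cells the next score lay between 0.6 and 0.8 of the best. Klra8 had no UMI and was dropped. The gate rule was set while the data were being looked at, and the members, marker lists and gene lists were chosen with earlier results of these data known. Apart from the intermediates, droplets whose next score was above 0.7 of the best were thus left out. Droplets with fewer markers of a further lineage could stay in a gate. With the threshold that Scrublet set by itself, doublets made up 2.75% of library 1, 0.0116% of library 2, 0% of library 3 and 1.73% of library 4, so the caller had not worked in libraries 2 and 3.

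For shares of cells, 1000 UMIs per cell were drawn without replacement, which left out 1890 shallower cells and kept 30243. A value per library needed at least 20 cells, unless the number of cells is given. Genes with at least 100 UMIs in the kept cells entered the comparisons between types, and those listed as most similar are the 5 with the highest r for each member. The genes named are the members, fixed lists of ligands, receptors and regulators, the genes that define cell states, and these most similar genes. Neutrophil gate genes named in basophils and the comparisons of adjacent types in the order of levels were chosen after their values were seen. The steps were tested on simulated data. Analyses used Python 3.11.15, NumPy 2.4.6, SciPy 1.17.1, pandas 2.3.3, Scanpy 1.11.5, Biopython 1.88 and matplotlib 3.10.9. As alternatives, the minimum of genes was set to 500, the mitochondrial limit to 10% and the gate ratio to 0.5. Further ones were removal of the highest 5% of doublet scores, thinning, equal weights for libraries, a minimum of 2 UMIs, Spearman's rho for similarity, and leaving out each library in turn.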

Additional observations from a re-analysis of the deposited data

How the results depend on the processing

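The levels are limited by depth, by few basophils, mature DC and NK cells, and by libraries of unknown treatment. Leaving out a library moved the neutrophil share of Ccl3 UMIs (63.2%) to between 51.0% and 67.5% and the level in the leading type (10312 CPM) to between 8635 and 11525 CPM. For Ccl4 the neutrophil share (41.0%) lay between 28.2% without library 3 and 51.2% without library 4, and the basophil level (17057 CPM) between 11172 and 19332 CPM. For Ccl5 the mature DC share (42.0%) lay between 2.15% without library 3 and 52.9%, and the level (7840 CPM) between 967 and 8542 CPM. For Ccr1 the share (47.3%) lay between 37.9% and 61.6% and the level (1065 CPM) between 1037 and 1098 CPM. The share of Ccl3-positive neutrophils with Ccl4 lay between 70.7% and 75.7%, and it was 78.2% with all UMIs. With at least 500 genes the shares of Ccl3, Ccl4 and Ccr1 were 62.9%, 40.3% and 46.5%, and the Ccl4 level 17712 CPM. The stricter gate gave shares of 58.2%, 38.9%, 41.3% and 45.3% for Ccl3, Ccl4, Ccl5 and Ccr1, and levels of 10151, 16565, 8847 and 1091 CPM. Removing the highest doublet scores gave shares of 65.7%, 43.0%, 40.4% and 49.6%, and levels of 10361, 18121 and 7194 CPM for Ccl3, Ccl4 and Ccl5. Thinning gave shares of 77.8%, 69.4%, 31.1% and 76.4%, and levels of 9729, 19895 and 1090 CPM for Ccl3, Ccl4 and Ccr1. Equal weights for the libraries with at least 20 cells of the type gave shares of 50.3% and 37.3% for Ccl3 and Ccl4, and levels of 8084, 21483, 5118 and 1002 CPM. A limit of 10% mitochondrial UMIs moved none of these beyond counting error. Of 72 alternative values for which the leading type was found, 66 kept it. The exceptions were the Ccl3 level after thinning and without library 2 or 3 (basophils led), the Ccl4 level without library 4 (neutrophils led), and the Ccl5 share and level without library 3 (NK cells led). The causes of the changes were not tested. No paired analysis was possible because the libraries cannot be tied to the samples.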

Other observations

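Regulators known for these chemokine genes did not share a leading type. A list of 14 factors linked to switching these genes on also held the inhibitors Nfkbia and Tnfaip3. Of the 14, 4 were highest in mature DC (Rel at 1054 CPM, Relb at 335 CPM, Nfkb2 and Rela). Another 3 were highest in neutrophils (Nfkbia at 8929 CPM, Tnfaip3 at 1051 CPM and Irf1 at 294 CPM). Irf1 was nearly as high in mature DC, at 290 CPM. NK cells led for 3 (Eomes at 276 CPM, Tbx21 at 72.0 CPM and Nr4a1 at 421 CPM). Among these, Nr4a1 was led by NK cells in no library taken alone, and neutrophils were close with 403 CPM. Mature DC led for Rel, Relb and Nfkb2 in libraries 2 and 3 and for Rela in library 3. Nfkbia and Tnfaip3 encode inhibitors of NF-kB signalling that NF-kB itself induces, and Nfkbia led in neutrophils in 3 of 4 libraries. Irf7, an interferon-response factor, was highest in monocytes (911 CPM) in all 4 libraries, and Nfkb1 in T cells (412 CPM) in all 4. Egr1, an immediate-early gene, was highest in basophils (2487 CPM), followed by neutrophils (1791 CPM).

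Of 4 factors known for breaking down such transcripts, Zfp36 (1752 CPM) and Zc3h12a (215 CPM) were highest in neutrophils, and basophils came next for both. Zfp36 led in neutrophils in 1 library only, since macrophages led in libraries 1 and 2 and basophils in library 4.

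Ungated droplets with scores below the minimum, 1117 in number, had 2993 CPM of Ccl3 and held 6.10% of its UMIs, which is more than the monocytes held (5.45%).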
